A study of Mus musculus with 15 samples.

Results

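The interferon-gamma-induced GTPases described here are 10 mouse genes in 2 families. Igtp, Irgm1, Irgm2 and Iigp1 belong to the immunity-related GTPases (IRG), and Gbp2, Gbp3, Gbp4, Gbp6, Gbp7 and Gbp9 to the guanylate-binding proteins (GBP). The genes were taken by name from both families and matched to the Ensembl identifiers of the count table. All 10 were found among its 45706 identifiers, and all 10 were among the 18983 genes with enough counts to be tested.

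Both families are large GTPases that cells make in quantity after interferon-gamma, and to a lesser extent after type I interferon. Interferon-gamma binds the Ifngr1 and Ifngr2 receptor chains, the kinases Jak1 and Jak2 pass the signal on, and promoters of target genes often carry GAS elements and ISRE elements, of which Irf1 binds the latter. The GTPases coat and break the vacuoles of intracellular parasites and bacteria. In bone marrow, Irgm1 is known for keeping haematopoietic stem cells from excessive division under interferon-gamma, a cytokine known for driving marrow failure.

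The cells came from bone marrow of secondary recipients, for which the study's methods name tibias, femora and pelvis. Haematopoietic stem and progenitor (LSK) cells of 4 donor genotypes on a C57BL/6J CD45.2 background, taken at 8 to 12 weeks of age, were transplanted serially into lethally irradiated CD45.1 mice, and recipients were analysed 16 weeks after the second transplantation. The genotypes were WT (3 libraries), Puma-/- (4), third-generation telomerase-deficient G3 mTerc-/-Puma+/+ (4) and G3 mTerc-/-Puma-/- (4), where Puma is the p53-induced death gene Bbc3 and mTerc the telomerase RNA. All groups share the irradiation and the host. The labels name selection for lineage-negative cells and none for donor CD45.2, so RNA of surviving host cells can be included. They do not say whether replicates came from separate recipients, and p-values then measure only the spread between these samples.

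Total counts ran from 102790519 to 158367059 per library. Terc was at most at 0.00968 CPM, library-size-scaled counts with TMM factors, in the 8 libraries labelled mTerc-/- and at least at 0.0353 in the other 7. Bbc3 fell in Puma-/-, where its log2 fold change from WT was -1.70 (SE 0.267, Benjamini-Hochberg adjusted p = 0.0276 by the quasi-likelihood test of edgeR). Where the label was G3 mTerc-/-Puma-/- it was not low, at 13.7 to 17.3 CPM against 5.03 to 6.77 in Puma-/-, so the Puma status of these libraries rests on their labels alone, and they are called the libraries labelled double mutant below. Progenitor genes were present in all 14 libraries fitted, with Kit at 115 CPM or more, Cd34 at 151 or more and Flt3 at 56.2 or more. Replicate 2 of the libraries labelled double mutant stood apart, with Flt3 at 3.41 CPM, Irf8 at 31.1 against 454 to 874 elsewhere and the erythroid factor Klf1 at 57.9 against 3.09 to 11.9. It was left out of the fit, and its values are given beside the others. Xist, the RNA of the inactive X chromosome of female cells, ran from 464 to 861 CPM in Puma-/- and was at most at 89.4 in G3 mTerc-/-Puma+/+, while WT and the libraries labelled double mutant held both high and low libraries.

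Promoter sequence was available from RefSeq (GRCm38.p6) for 6 of the 10 genes, Igtp, Irgm1, Irgm2, Gbp2, Gbp3 and Gbp7, as windows of 250 bases before to 50 bases after the annotated start. Iigp1, Gbp4, Gbp6 and Gbp9 had no entry. The windows were searched on both strands for the ISRE letters GAAANNGAAA, in which N is any base, and for the GAS letters TTCNNNGAA, which read the same on both strands. All 6 windowed genes held ISRE letters, against 3.44% of all 32851 windows, and 3 held GAS letters, against 8.30%. Igtp, Irgm2 and Gbp7 held both, as did 0.454% of all windows. The 120 bases before the start of 4 of the genes are shown because they carry these letters in capitals. They are on the + strand at chr11:58199436-58199555 (Igtp), chr11:58214857-58214976 (Irgm2), chr3:142559924-142560043 (Gbp3) and chr3:142530216-142530335 (Gbp7).
Igtp: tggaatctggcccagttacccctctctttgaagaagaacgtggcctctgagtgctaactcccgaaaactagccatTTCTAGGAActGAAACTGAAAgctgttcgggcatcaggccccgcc
Irgm2: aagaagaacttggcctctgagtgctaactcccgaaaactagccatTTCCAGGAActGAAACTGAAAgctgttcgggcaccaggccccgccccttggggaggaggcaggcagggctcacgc
Gbp3: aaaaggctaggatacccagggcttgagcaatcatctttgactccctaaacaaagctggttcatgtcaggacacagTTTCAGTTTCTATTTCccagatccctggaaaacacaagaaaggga
Gbp7: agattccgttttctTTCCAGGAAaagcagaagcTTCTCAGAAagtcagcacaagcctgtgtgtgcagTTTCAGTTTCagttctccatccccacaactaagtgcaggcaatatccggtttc

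In Igtp the GAS letters began 45 bases and the ISRE letters 34 bases before the start, and in Irgm2 they began 75 and 64 bases before it. With the GAS letters aligned, 87 of 90 bases of the Igtp and Irgm2 stretches were identical. Gbp7 held GAS letters 106 and 87 bases and ISRE letters 53 bases before its start. Gbp3 held 2 overlapping ISRE matches, 45 and 39 bases before the first of its 2 annotated starts, and no GAS letters in either window. Irgm1 likewise held 2 overlapping ISRE matches, from 30 and 24 bases before its start, and Gbp2 a single match from 59 bases. These matches describe letters and were not tested for binding. Of the 16 other IRG and GBP genes examined, 8 had a window, 6 of these held ISRE letters and 4 held both.

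Positions are those of GENCODE vM21 (GRCm38). Igtp (ENSMUSG00000078853, chr11:58199556-58207591) and Irgm2 (ENSMUSG00000069874, chr11:58199618-58222782) lie on the same strand of chromosome 11 and share 162 exon bases, 8.0% of Igtp and 4.4% of Irgm2. Irgm1 (ENSMUSG00000046879, chr11:48861968-48871683) lies elsewhere on that chromosome, and Iigp1 (ENSMUSG00000054072) on chromosome 18. Gbp7 (ENSMUSG00000040253, chr3:142530342-142550149), Gbp3 (ENSMUSG00000028268, chr3:142560026-142573209) and Gbp2 (ENSMUSG00000028270, chr3:142620602-142638008) are neighbours on chromosome 3. Gbp9 (ENSMUSG00000029298, chr5:105077630-105139539), Gbp4 (ENSMUSG00000079363, chr5:105115767-105139586) and Gbp6 (ENSMUSG00000104713, chr5:105270702-105293698) overlap or neighbour each other on chromosome 5. Gbp6 shares 29.0% of its exon bases with Gm43302, which was listed at 0 in the libraries, and Gbp7 shares 11.3% with the pseudogene Gm43802. Reads in shared or near-identical stretches may have been lost or split between copies, so the levels of these genes, of Gbp6 most, are uncertain.

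Counted per length, as CPM per kilobase of exon averaged over the 14 libraries, Gbp3 had the highest level (21.8 ± 3.63, SD, n = 14) and Gbp6 the lowest (0.245 ± 0.153). Between them came Igtp (13.6 ± 4.63), Irgm1 (8.28 ± 1.40), Gbp2 (6.49 ± 2.72), Irgm2 (4.51 ± 1.54), Gbp7 (3.15 ± 0.852), Gbp4 (1.69 ± 0.716), Iigp1 (1.52 ± 1.17) and Gbp9 (1.47 ± 0.506). Each of the first 6 steps of this order held in at least 13 of all 15 libraries. Gbp4 exceeded Iigp1 in 10 of 15 and Iigp1 exceeded Gbp9 in 6 of 15, so the order of these 3 was not fixed. Gbp9 exceeded Gbp6 in 15 of 15.

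Iigp1 encodes Irga6, an effector IRG that loads onto parasite vacuoles. In replicate order its CPM was 2.61, 7.42 and 2.60 for WT, 11.2, 22.6, 3.25 and 8.80 for Puma-/-, 17.97, 2.33, 3.86 and 4.17 for G3 mTerc-/-Puma+/+, and 15.2, 18.4, 17.2 and 4.63 for the libraries labelled double mutant. Every genotype thus held libraries near the WT level, and each mutant genotype held at least 1 library far above it. Mean levels were 4.21 ± 2.78 CPM for WT (SD, n = 3, as for all WT means), 11.5 ± 8.14 for Puma-/- with n = 4, 7.08 ± 7.30 for G3 mTerc-/-Puma+/+ with n = 4 and 12.3 ± 6.74 for the libraries labelled double mutant with n = 3, replicate 2 left out. The lowest and the highest of the 15 libraries differed 9.69-fold.

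Igtp, Irgm1 and Irgm2 are the regulatory IRGs, which sit on internal membranes and hold the effector IRGs inactive there. Igtp stood at 20.1, 27.98 and 17.4 CPM for WT, 22.5, 45.8, 23.5 and 26.7 for Puma-/-, 42.98, 15.97, 21.2 and 23.1 for G3 mTerc-/-Puma+/+ and 37.8, 31.0, 35.05 and 23.7 for the libraries labelled double mutant. Puma-/- replicate 2 and G3 mTerc-/-Puma+/+ replicate 1 held the highest values, and all pairs of genotypes overlapped. Irgm2 ran from 10.7 to 15.8 CPM for WT, 13.5 to 27.5 for Puma-/-, 8.84 to 27.1 for G3 mTerc-/-Puma+/+ and 13.7 to 20.6 for the libraries labelled double mutant, with replicate 2 at 17.2. Irgm1 was the steadiest of the IRGs, with means of 44.4 ± 3.49 CPM for WT, 49.97 ± 10.01 for Puma-/-, 46.3 ± 11.2 for G3 mTerc-/-Puma+/+ and 51.7 ± 4.66 for the libraries labelled double mutant. Its lowest and highest libraries, G3 mTerc-/-Puma+/+ replicate 2 and Puma-/- replicate 2, differed 1.89-fold.

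Among the GBPs of chromosome 3, Gbp3 stood at 62.9, 76.6 and 75.2 CPM for WT, 57.7, 76.5, 55.9 and 54.5 for Puma-/-, 86.5, 72.2, 68.8 and 65.6 for G3 mTerc-/-Puma+/+ and 85.9, 49.2, 92.9 and 66.2 for the libraries labelled double mutant. Of the Puma-/- libraries, 3 lay below every library of the other genotypes except replicate 2 of the libraries labelled double mutant, which was the lowest of all. Gbp7, which was linked in other studies to autophagy proteins and the phagocyte oxidase, stood at 13.4, 14.9 and 12.7 CPM for WT, 18.7, 26.4, 10.5 and 17.2 for Puma-/-, 24.7, 18.1, 17.3 and 15.7 for G3 mTerc-/-Puma+/+ and 24.5, 21.9, 19.7 and 13.96 for the libraries labelled double mutant. Its G3 mTerc-/-Puma+/+ and WT libraries did not overlap. Gbp2, which helps to expose bacterial lipopolysaccharide to the noncanonical inflammasome, had means of 13.1 ± 2.34 CPM for WT, 16.4 ± 5.86 for Puma-/-, 15.8 ± 9.53 for G3 mTerc-/-Puma+/+ and 20.2 ± 8.49 for the libraries labelled double mutant, whose replicate 2 stood at 15.7.

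The GBPs of chromosome 5 help to break parasite vacuoles. Gbp6 stood at 0.722, 1.49 and 0.639 CPM for WT, 1.42, 3.31, 0.893 and 1.01 for Puma-/-, 2.53, 0.319, 0.765 and 0.796 for G3 mTerc-/-Puma+/+ and 2.73, 2.57, 2.30 and 1.48 for the libraries labelled double mutant. WT replicate 2, at 1.49, just reached into the range of the last group. Gbp4 had means of 10.5 ± 3.40 CPM for WT, 14.3 ± 7.57 for Puma-/-, 11.3 ± 6.23 for G3 mTerc-/-Puma+/+ and 14.6 ± 3.11 for the libraries labelled double mutant, with replicate 2 at 24.1. Gbp9 had means of 6.76 ± 1.33, 8.96 ± 3.41, 6.27 ± 3.02 and 8.31 ± 1.58 CPM in the same order, with replicate 2 at 11.3. Raw counts behind these levels ran from 33 to 429 for Gbp6 and were at least 241 for every other GTPase in every library.

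**Figure D1:**
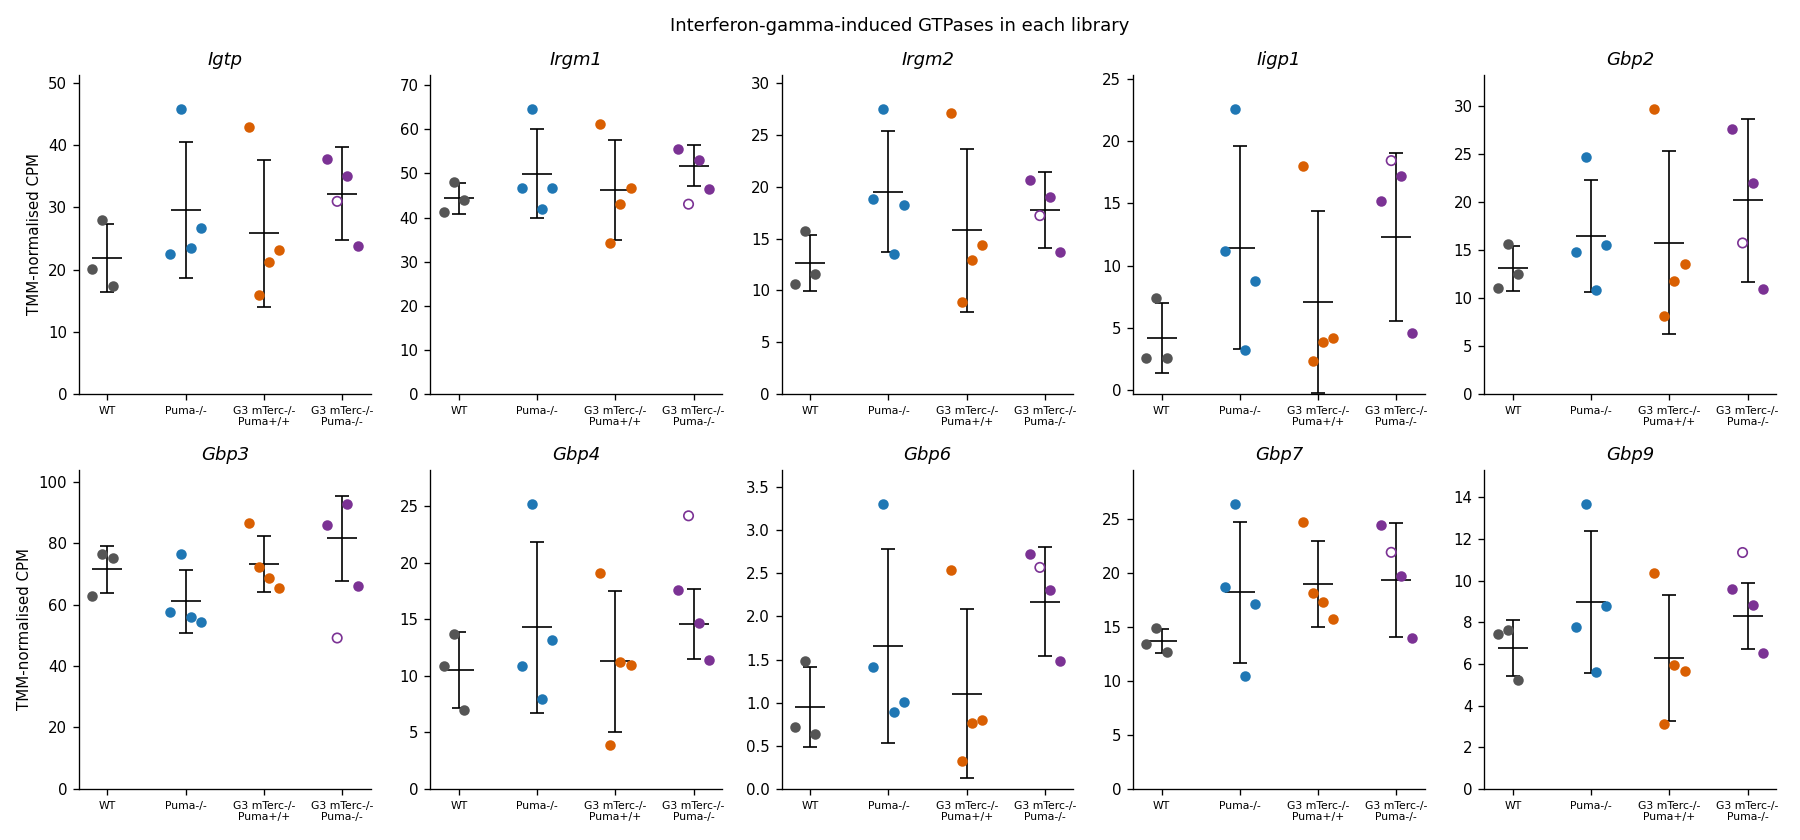
TMM-normalised CPM of the 10 GTPases in each library, by genotype. Filled points are the 14 libraries of the fit, the open point is replicate 2 of the libraries labelled double mutant, and bars are the mean and SD of the filled points. In Puma-/- and in G3 mTerc-/-Puma+/+ a single library lies above the rest in every panel, as with Iigp1 at 22.6 CPM in Puma-/- replicate 2.

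By genotype mean, the libraries labelled double mutant were highest for 8 of the 10 GTPases and Puma-/- for 2, Irgm2 and Gbp9. WT was lowest for 8, Puma-/- for Gbp3 and G3 mTerc-/-Puma+/+ for Gbp9. No pair of genotypes that neighbour each other in these orders differed past the threshold for any GTPase.

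The effect of Puma loss with telomerase present was addressed by Puma-/- against WT. None of the GTPases passed the test, 0 of 10 against 0.079% of all genes tested. Of the 10 log2 fold changes 9 were above 0, with a median of 0.44 against 0.00 over all genes. Iigp1 had a value of 1.46 (SE 0.769, adjusted p = 0.534, edgeR) and Irgm2 of 0.64 (SE 0.324, adjusted p = 0.526), while Gbp3 lay at -0.21 (SE 0.144, adjusted p = 0.637). The groups overlapped for every GTPase, whereas 9.71% of all genes tested had no overlap. Without Puma-/- replicate 2 the median was 0.15. Xist was high in every Puma-/- library and mixed in WT, and with Xist as a covariate the median was 0.30.

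Telomerase loss with Puma present was addressed by G3 mTerc-/-Puma+/+ against WT. Again 0 of 10 GTPases passed, against 0.0369% of all genes. The median log2 fold change was 0.23 with 9 of 10 above 0, but without G3 mTerc-/-Puma+/+ replicate 1 it was -0.19 with 1 of 10 above 0. It was 0.13 without WT replicate 1, 0.43 without WT replicate 2, 0.09 without WT replicate 3, 0.44 without G3 mTerc-/-Puma+/+ replicate 2 and 0.10 with limma-voom. Gbp7 was the GTPase whose libraries did not overlap, as was true of 4.07% of all genes tested, and its log2 fold change was 0.47 (SE 0.262, adjusted p = 0.998, edgeR).

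Puma loss on the telomerase-deficient background, the comparison nearest to the question of the study, set the libraries labelled double mutant against G3 mTerc-/-Puma+/+. None of the GTPases passed, 0 of 10 against 0.0738% of all genes. All 10 log2 fold changes were above 0, against 46.3% of all genes, with a median of 0.34 against -0.01. The 10 GTPases rose and fell together across libraries, with a median r of 0.88 between pairs. Counts of them above 0, here and in the other comparisons, are therefore not counts of independent observations. The highest were 0.97 for Gbp6 (SE 0.596, adjusted p = 0.885, edgeR) and 0.80 for Iigp1 (SE 0.730, adjusted p = 0.951), and the lowest was 0.02 for Gbp7. No GTPase was free of overlap, against 5.55% of all genes. G3 mTerc-/-Puma+/+ replicate 1 moved these differences most. Without it the median was 0.71 and 5 GTPases, Igtp, Iigp1, Gbp2, Gbp6 and Gbp9, had an unadjusted p under 0.05, with 0.270 as the lowest adjusted p. In that fit 1867 of 18903 genes tested had an unadjusted p under 0.05, against 1180 of 18983 with all 14 libraries. Without replicate 2 of that genotype the median was 0.14. It was 0.15 without replicate 1 and 0.51 without replicate 4 of the libraries labelled double mutant. With all 15 libraries the median was 0.29.

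Telomerase loss on the Puma-deficient background set the libraries labelled double mutant against Puma-/-. Here too 0 of 10 passed, against 0.306% of all genes. The log2 fold change of Gbp3 was 0.40 (SE 0.143, adjusted p = 0.422, edgeR). Its unadjusted p, 0.0148, was the lowest of any GTPase in any of the 7 comparisons, and 8.42% of all genes had an unadjusted p under 0.05. With all 15 libraries the value of Gbp3 was 0.25 (adjusted p = 0.805). The other 9 values lay between -0.15 and 0.37, and the median of the 10 was 0.08. Leaving out Puma-/- replicate 2 gave a median of 0.41, leaving out Puma-/- replicate 3 one of -0.08 and leaving out replicate 1 of the libraries labelled double mutant one of -0.06. With Xist as a covariate the median was 0.27. No GTPase was free of overlap, against 9.54% of all genes tested.

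G3 mTerc-/-Puma+/+ against Puma-/- differed in both genes and in Xist. Once more 0 of 10 GTPases passed, against 0.801% of all genes, 8 of the 10 log2 fold changes were below 0 and their median was -0.27. Gbp9 lay at -0.53 (SE 0.322, adjusted p = 0.421, edgeR) and Gbp3 at 0.25 (SE 0.133, adjusted p = 0.359). No GTPase was free of overlap, against 10.8% of all genes. The median was -0.64 without G3 mTerc-/-Puma+/+ replicate 1, 0.04 without Puma-/- replicate 2 and -0.05 with Xist as a covariate.

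The libraries labelled G3 mTerc-/-Puma-/- against WT gave 0 of 10, against 0.0632% of all genes. All 10 log2 fold changes were above 0, with a median of 0.49, and Iigp1 had the largest single value of the 7 comparisons, 1.55 (SE 0.806, adjusted p = 0.963, edgeR). Gbp6 followed with 1.19 (SE 0.652, adjusted p = 0.997). No GTPase was free of overlap, against 8.52% of all genes. Without replicate 1 of the libraries labelled double mutant it was 0.32, and with all 15 libraries 0.55. The interaction of mTerc and Puma, the difference between the effect of Puma loss with and without telomerase, gave 0 of 10 against 0.0527% of all genes, with values from -0.66 for Iigp1 to 0.36 for Gbp3. The median was -0.06, and it ran from -0.33 without WT replicate 2 to 0.32 without G3 mTerc-/-Puma+/+ replicate 1. All comparisons of a genotype share its libraries, so these sets of values are not independent.

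**Figure D2:**
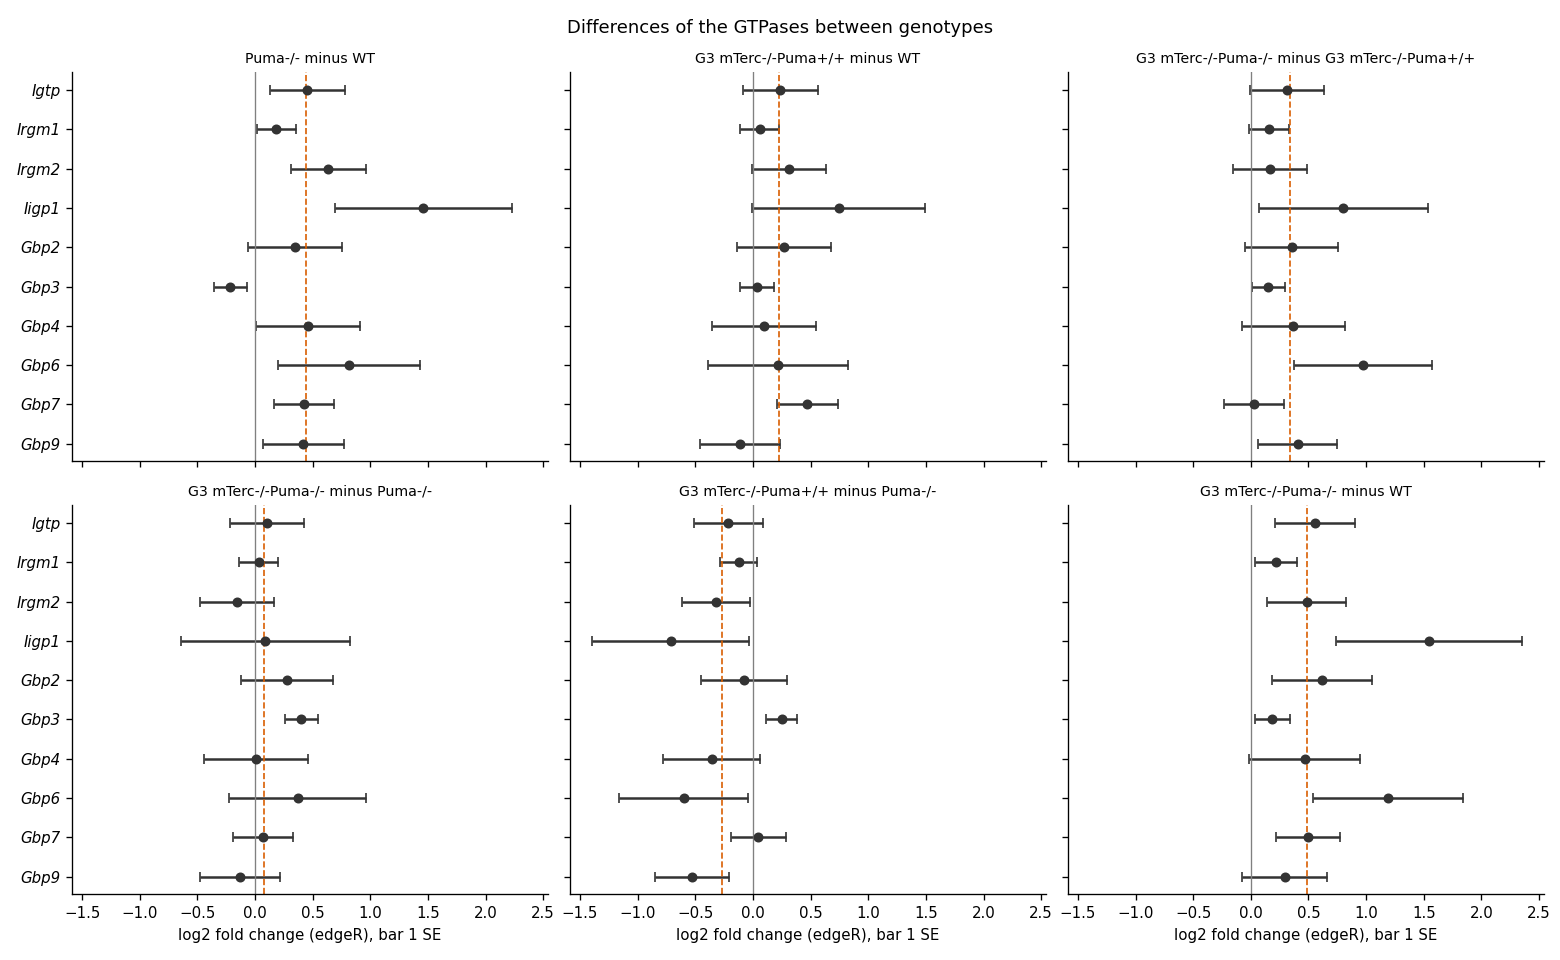
Log2 fold changes of the 10 GTPases in the 6 comparisons of 2 genotypes, from the edgeR fit of 14 libraries. Bars are 1 SE and the dashed line is the median of the 10. None passed an adjusted p of 0.05, and all 10 lie above 0 in both the comparison with G3 mTerc-/-Puma+/+ and that with WT of the libraries labelled double mutant. The 10 genes moved together across libraries, so they are not 10 independent observations.

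**Figure D3:**
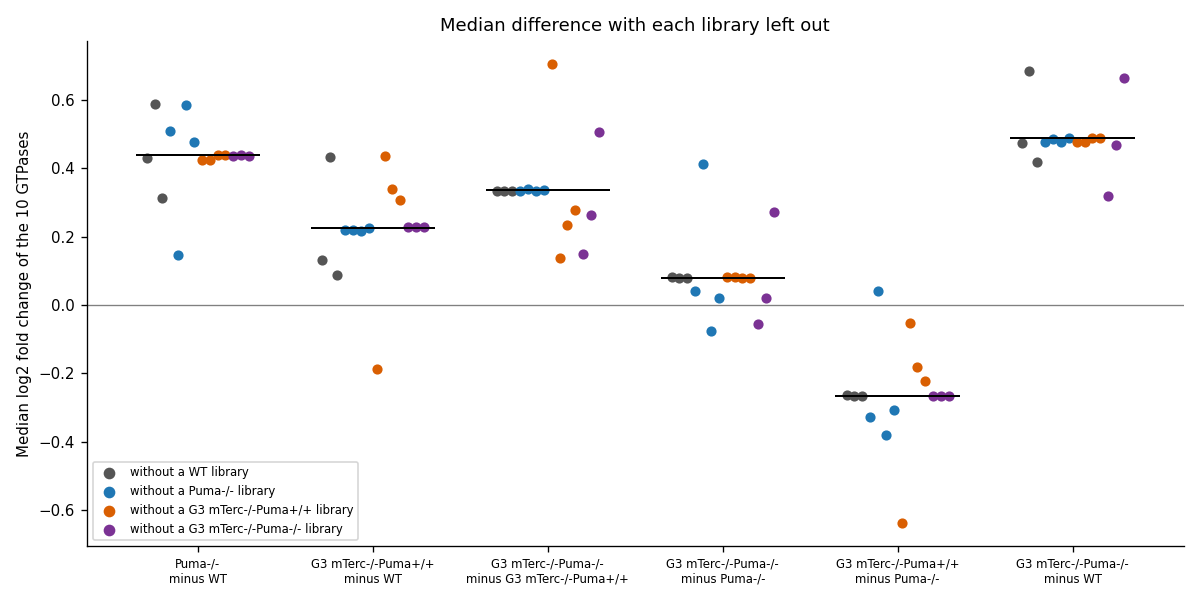
Median log2 fold change of the 10 GTPases in the 6 comparisons of 2 genotypes (vertical axis) after leaving out each of the 14 libraries in turn, coloured by the genotype of the library left out. The black line is the median with all 14. Without G3 mTerc-/-Puma+/+ replicate 1 the median moves from 0.23 to -0.19 against WT and from 0.34 to 0.71 in the libraries labelled double mutant against that genotype.

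DESeq2 and limma-voom on the same 14 libraries also called 0 of 10 in each of the 7 comparisons. At an unadjusted p under 0.05, edgeR on all 14 libraries gave 1 GTPase over the 7 comparisons, Gbp3 in the libraries labelled double mutant against Puma-/-. In that comparison both other tools gave Gbp3 too, DESeq2 gave in addition Irgm2 in Puma-/- against WT and Gbp6 in the libraries labelled double mutant against WT, and limma-voom gave Gbp6 in those libraries against G3 mTerc-/-Puma+/+. Other edgeR fits gave more. In the libraries labelled double mutant against WT, 5 GTPases (Igtp, Irgm2, Iigp1, Gbp6 and Gbp7) had an unadjusted p under 0.05 when only these groups were fitted, with 0.689 as the lowest adjusted p, and 4 (Iigp1, Gbp3, Gbp6 and Gbp7) with a replicate block, with 0.796 as the lowest. In G3 mTerc-/-Puma+/+ against Puma-/-, 5 (Igtp, Irgm2, Iigp1, Gbp6 and Gbp9) did without G3 mTerc-/-Puma+/+ replicate 1, with 0.147 as the lowest adjusted p. In Puma-/- against WT, 3 (Irgm2, Iigp1 and Gbp7) did without Puma-/- replicate 3, with 0.291 as the lowest, so 0 of 10 passed in these fits too.

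Most of the spread of the GTPases lay within genotypes. The SD of log2 CPM within genotypes had a median of 0.49 over the 10 GTPases against 0.24 over all genes tested, and ran from 0.21 for Gbp3 to 1.11 for Iigp1. Iigp1 varied more than 97.8% of the genes tested and Gbp6 more than 95.1%, while Gbp3 varied more than 44.1%. Genotype accounted for a median of 23.2% of the variance of the GTPases and 24.2% of that of all genes tested.

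Within each genotype the GTPases pointed to the same library. WT replicate 2 was the highest WT library for 10 of 10, Puma-/- replicate 2 the highest of its genotype for 10 of 10 and G3 mTerc-/-Puma+/+ replicate 1 the highest of its genotype for 10 of 10. Replicate 4 of the libraries labelled double mutant was the lowest of the 3 fitted for 10 of 10, and replicate 1 the highest for 8, with Iigp1 and Gbp3 highest in replicate 3. G3 mTerc-/-Puma+/+ replicate 2 was the lowest of its genotype for 8 of 10 and Puma-/- replicate 3 for 8 of 10. The summed level of the 10 genes was 330 CPM in Puma-/- replicate 2 and 322 in G3 mTerc-/-Puma+/+ replicate 1, against 174 to 211 and 167 to 201 in the other libraries of these genotypes.

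**Figure D4:**
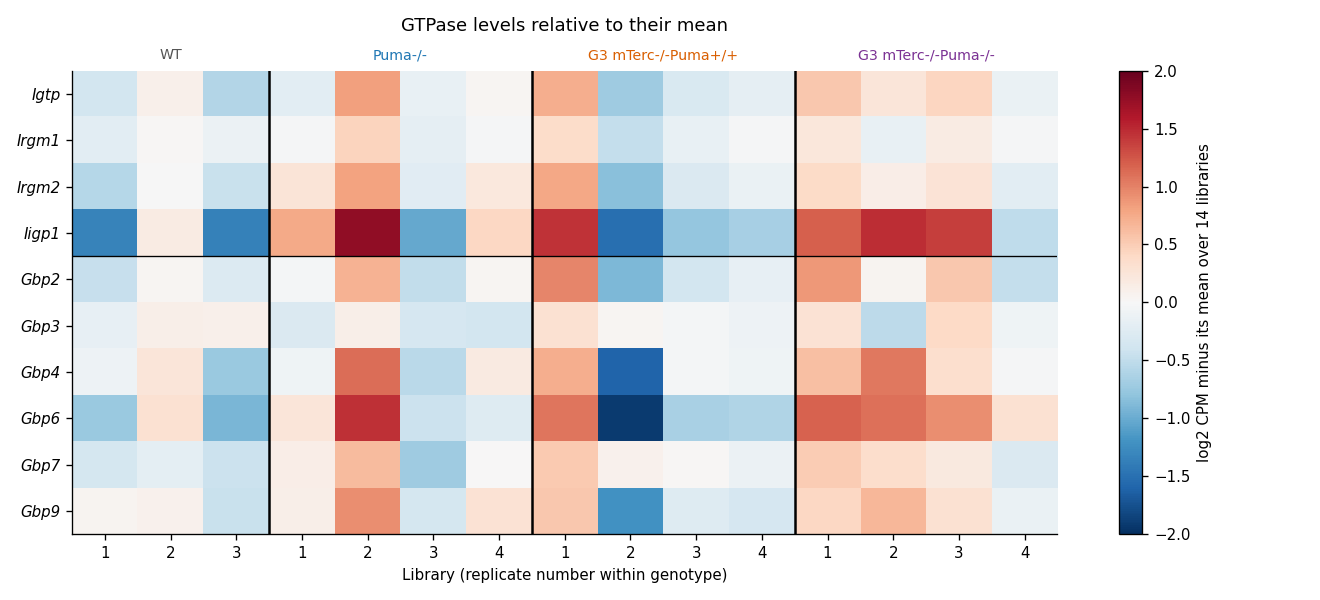
Log2 CPM of each GTPase (rows, IRGs above the line, GBPs below) minus its mean over the 14 fitted libraries, for all 15 libraries (columns, by genotype and replicate number). Red columns span most rows in Puma-/- replicate 2, G3 mTerc-/-Puma+/+ replicate 1 and replicates 1 and 3 of the libraries labelled double mutant, and G3 mTerc-/-Puma+/+ replicate 2 is the lowest of the 14 for 8 of 10 genes.

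Across the 14 libraries all 45 pairs of GTPases correlated above 0, with a median Pearson r of 0.88. The highest was 0.96 between Gbp4 and Gbp9, which share 60 exon bases, and the lowest 0.26 between Gbp3 and Gbp9. Against the mean of the other 9, scaled per gene, r was 0.97 for Irgm1, 0.96 for Igtp and Gbp2 and 0.95 for Iigp1. Gbp7 (0.74) and Gbp3 (0.48) followed the others least. These are descriptions, with no test, of 14 points that share library preparation and scaling. They also reflect a gap between libraries. The mean scaled log2 CPM of the 10 GTPases lay between 0.87 and 1.56 in Puma-/- replicate 2, G3 mTerc-/-Puma+/+ replicate 1 and replicates 1 and 3 of the libraries labelled double mutant, and at or below 0.12 in the other 10. Correlations with other genes below are over the 14 libraries, so they rest in part on this gap. Values over the 10 lower libraries are given beside them, but those libraries were picked by the GTPase level itself and span a narrower range of it, so neither value stands alone.

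The tested genes whose pattern was most like the mean scaled level of the 10 GTPases were, in order, Myo3b, Tgtp1, Tgtp2, Gm4841, Tapbpl, Itgb8, Cxcl9, Gm12250, H2-Q4 and Ppp1r16b, with r from 0.97 for Myo3b to 0.94 for Ppp1r16b over 14 libraries among 18973 genes ranked. Over the 10 libraries without the 4 highest, r lay between 0.68 for Gm12250 and 0.95 for Tgtp1. Tgtp1 and Tgtp2 are further IRGs, and Gm12250, also among the other IRG and GBP genes examined, is annotated as a processed pseudogene. Cxcl9 is an interferon-gamma-induced chemokine, and H2-Q4 encodes a class I histocompatibility molecule. With each genotype centred on its own mean, r stayed at 0.94 or above for all 10. Cxcl9 ran from 1.06 CPM in G3 mTerc-/-Puma+/+ replicate 2 to 18.6 in replicate 1 of that genotype, and Tgtp2 from 6.10 in the former to 38.5 in Puma-/- replicate 2. Myo3b, Gm4841 and Itgb8 were low, at most at 1.07, 2.03 and 1.80 CPM in the 14 libraries.

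Of the 16 other IRG and GBP genes, 15 were tested and 0 passed in any of the 7 comparisons. Their median log2 fold change was 0.43 in Puma-/- against WT, 0.33 in the libraries labelled double mutant against G3 mTerc-/-Puma+/+ and 0.58 in those libraries against WT, against 0.44, 0.34 and 0.49 for the 10 GTPases. It was 0.13 in G3 mTerc-/-Puma+/+ against WT, where the GTPases had 0.23, and -0.42 in G3 mTerc-/-Puma+/+ against Puma-/-, where they had -0.27. In the libraries labelled double mutant against Puma-/- it was 0.10, where they had 0.08. Their summed level had r = 0.96 with the mean scaled level of the GTPases (Spearman's rho 0.94, n = 14) and 0.90 (rho 0.85) over the 10 lower libraries.

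Of the 16 genes of interferon-gamma signalling all were tested and 0 passed in any comparison. Ifng, the ligand, was low, from 1.77 to 8.64 CPM, and stood at 8.64, 7.43 and 1.77 in replicates 1, 3 and 4 of the libraries labelled double mutant. Its log2 fold change in these libraries against G3 mTerc-/-Puma+/+ was 0.99 (SE 0.518, adjusted p = 0.834, edgeR). With the GTPase level, Ifng had r = 0.68 over the 14 libraries, 0.73 with genotypes centred and -0.16 over the 10 lower libraries. Over the 14 libraries the receptor chains Ifngr1 and Ifngr2 had r of -0.45 and -0.22 (0.02 and 0.22 over the 10), and the kinases Jak1 and Jak2 0.81 and 0.38 (0.69 and 0.55). The transcription factor Irf1 had r = 0.89 (0.65 over the 10), the feedback inhibitor Socs1 0.86 (0.61) and Irf8, a myeloid factor, 0.44 (0.57). Ifngr2 in Puma-/- against WT, at -0.18 (SE 0.0814, adjusted p = 0.491), was the single gene of the list with an unadjusted p under 0.05.

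Of 25 other interferon-gamma targets 24 were tested and 0 passed in any comparison. Their summed level had r = 0.78 with the GTPase level (rho 0.74, n = 14) and 0.62 (rho 0.44) over the 10 lower libraries. The antigen presentation genes Tap1 and Nlrc5 had r of 0.92 and 0.91 (0.64 and 0.58 over the 10). Not every gene of the list followed. Ly6a stood at 12.8 CPM in G3 mTerc-/-Puma+/+ replicate 1 and at 21.2 in replicate 2. The 10 genes of the Atg8 conjugation system, which places IRGs and GBPs on vacuoles, and the 8 inflammasome genes that act after the GBPs also gave 0 passing genes in any comparison. The summed level of the Atg8 genes had r = -0.56 with the GTPase level (-0.77 over the 10 lower libraries). That of the inflammasome genes had -0.12 (-0.55 over the 10), and 0.10 without Puma-/- replicate 2 and G3 mTerc-/-Puma+/+ replicate 1.

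The 28 type I interferon-stimulated genes gave 0 passing genes in any comparison. Their summed level had r = 0.69 with the GTPase level over the 14 libraries (rho 0.60), 0.71 with genotypes centred and 0.46 (rho 0.21) over the 10 lower libraries, and the 4 libraries with the highest GTPase level were among the 5 with the highest type I sums. In the libraries labelled double mutant against G3 mTerc-/-Puma+/+, all 28 had a log2 fold change above 0, with a median of 0.76, and 20 of 28 an unadjusted p under 0.05, whereas the median of the 10 GTPases was 0.34 and 0 of 10 had one. Over all genes tested, 46.3% were above 0 and 6.22% had an unadjusted p under 0.05 in this comparison. Replicate 4 of the libraries labelled double mutant had the highest sum of type I genes of the 14, 904 CPM, and the lowest level of all 10 GTPases in its group. Its lead was small, with 888 CPM in replicate 1 of that group and 886 in Puma-/- replicate 2. In replicate 4 of the libraries labelled double mutant Usp18, a type I feedback gene, stood at 15.4 CPM and Iigp1 at 4.63. In replicates 1 and 3 Usp18 stood at 9.86 and 10.2 and Iigp1 at 15.2 and 17.2. Type I genes differed in this. In replicates 1, 3 and 4 Isg15 stood at 5.72, 7.56 and 9.08 CPM, and Mx1 at 35.9, 30.7 and 33.8. The difference between both gene lists was not tested.

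Markers of mature cells were present in these lineage-negative preparations. Those of T cells and many of those of NK cells and macrophages moved with the GTPases, as did the endothelial sum, which was mostly Pecam1. The stromal and erythroid sums followed less closely, each with r = 0.57 over the 14 libraries. The monocyte sum did not follow, and the neutrophil sum tended the other way. None of the 8 T cell markers was at 0 in all libraries, and their sum was 105, 120 and 59.7 CPM for WT, 60.2, 213, 75.2 and 75.2 for Puma-/-, 229, 37.8, 66.8 and 82.6 for G3 mTerc-/-Puma+/+, and 197, 172, 189 and 100 for the libraries labelled double mutant. The library with the highest T cell sum was the one with the highest GTPase level in WT, Puma-/- and G3 mTerc-/-Puma+/+, and replicates 1 and 3 exceeded replicate 4 in the remaining group. The T cell sum had r = 0.90 with the GTPase level (rho 0.82, n = 14), 0.84 without Puma-/- replicate 2 and G3 mTerc-/-Puma+/+ replicate 1, 0.92 with genotypes centred and 0.59 (rho 0.53) over the 10 lower libraries. Of single T cell genes, Cd8a ran from 4.64 CPM in G3 mTerc-/-Puma+/+ replicate 2 to 51.6 in replicate 1 of that genotype, and Cd3e from 3.55 to 27.2 in the same libraries. None of the 8 T cell markers passed the test in any comparison.

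The sum of 9 macrophage markers ran from 70.0 to 255 CPM over the 14 libraries and had r = 0.65 (rho 0.62, n = 14), 0.77 over the 10 lower libraries. The complement genes C1qa, C1qb and C1qc, made by marrow macrophages, had r of 0.81, 0.84 and 0.81 (0.71, 0.72 and 0.70 over the 10). Not all of the list followed. In Puma-/- replicate 2, Adgre1, Vcam1 and Hmox1 were the lowest of that genotype, at 15.4, 72.7 and 18.2 CPM. The sum of 10 NK cell markers had r = 0.56 (rho 0.66) and 0.12 over the 10, but Nkg7, at 265 CPM or more in each library, weighed heavily in it and had r = -0.41. The other 9 NK cell genes had r from 0.57 for Gzma to 0.92 for Il2rb, among them 0.90 for the cytotoxic gene Prf1, and over the 10 lower libraries from 0.49 for Gzmb to 0.86 for Prf1. Sums of 6 endothelial and 6 stromal markers had r of 0.73 and 0.57 (0.75 and 0.67 over the 10), of 10 progenitor markers 0.26 (0.73), of monocyte markers -0.15 (-0.33) and of neutrophil markers -0.42 (-0.09). Pecam1 made up most of the endothelial sum, at 101 of 114 CPM in WT replicate 1. In G3 mTerc-/-Puma+/+ replicate 1, Col1a1 and Col1a2 gave 1368 and 1037 of the 2804 CPM of the stromal sum. In Puma-/- replicate 2 the stromal sum was 452 CPM, against 395 to 961 in the other libraries of that genotype. With genotypes centred, the neutrophil sum had r = -0.67. It stood at 2524 CPM in Puma-/- replicate 2, against 4988 to 6299 in the other libraries of that genotype. The erythroid sum had r = 0.57 (rho 0.37) and 0.25 (rho -0.10) over the 10. That of plasmacytoid dendritic cell markers had r = 0.42 (0.39). Total counts had r = 0.34 (-0.04). In bulk RNA, more cells of a type and more RNA per cell cannot be told apart, and the part of these cells in the GTPase levels was not tested. Replicate 2 of the libraries labelled double mutant, with a T cell sum of 172 CPM, had Iigp1 at 18.4 and Gbp4 at 24.1 CPM, although its Irf8 level was 31.1.

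**Figure D5:**
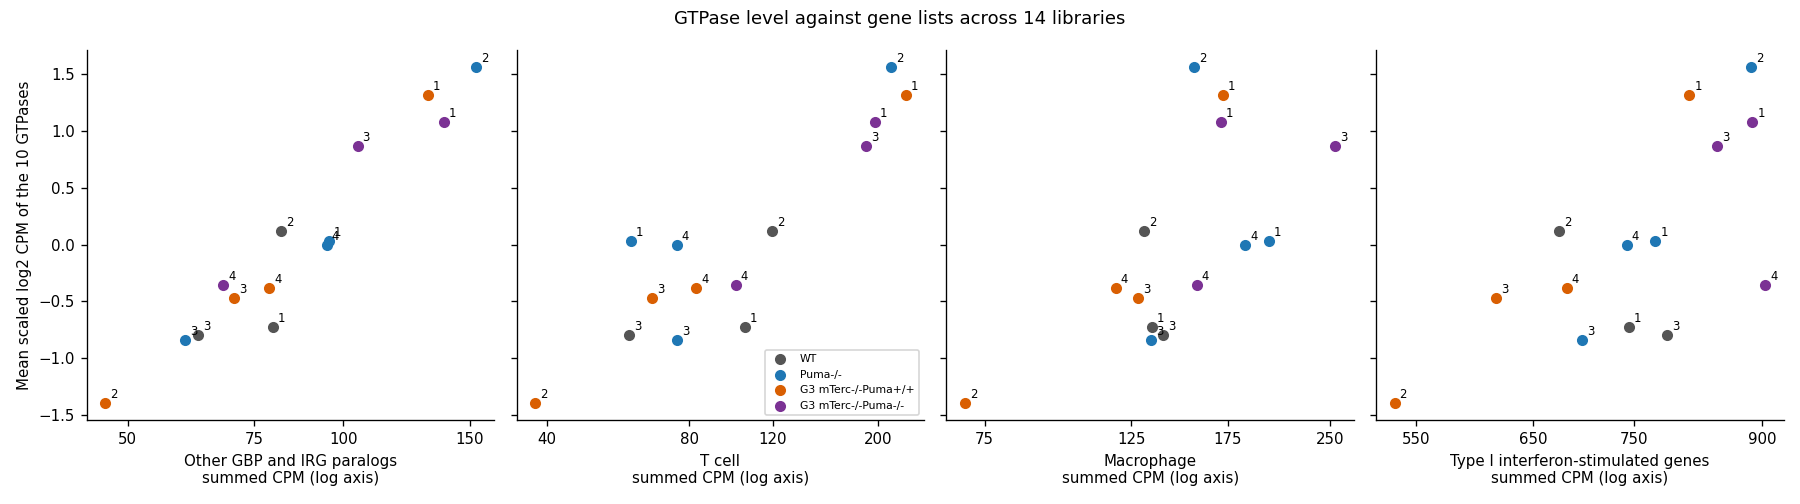
Mean scaled log2 CPM of the 10 GTPases (vertical axis) against the summed CPM, on a log axis, of the 16 other IRG and GBP genes, 8 T cell markers, 9 macrophage markers and 28 type I interferon-stimulated genes in the 14 fitted libraries. Colours are genotypes and numbers are replicates. The 4 points with the highest GTPase level are also those with the highest sums of paralogs and T cell markers, from 105 and 189 CPM upwards. Replicate 4 of the libraries labelled double mutant lies to the far right for type I genes. Its GTPase level, -0.36, is the lowest of its group but above WT replicates 1 and 3 (-0.73 and -0.80).

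Marker genes that passed the test in the same fit were of the B cell, plasmacytoid dendritic cell, megakaryocyte and sex lists. Igll1 and Blnk of the B lineage list and Ly6d of the plasmacytoid dendritic cell list were higher in the libraries labelled double mutant than in G3 mTerc-/-Puma+/+, with log2 fold changes from 1.79 for Blnk to 2.95 for Igll1, and Igll1 was also higher than in Puma-/- (2.46). Ms4a1 and Blnk were lower in G3 mTerc-/-Puma+/+ than in Puma-/-, Ms4a1 by -2.61. The megakaryocyte genes Gp1bb, Ppbp, Pf4, Gp9 and Gp6 were lower in the libraries labelled double mutant than in Puma-/-, Pf4 by -2.22, and Gp1bb, Pf4 and Gp9 were also lower in G3 mTerc-/-Puma+/+ than in Puma-/-. The Y-linked genes Kdm5d and Eif2s3y also passed in each comparison except G3 mTerc-/-Puma+/+ against WT, and Uty and Ddx3y in those that involve Puma-/- and in the interaction. The sum of B lineage markers had r = 0.25 and that of megakaryocyte markers -0.02 with the GTPase level over the 14 libraries (0.37 and 0.39 over the 10 lower).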

How the data were processed

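Polyadenylated RNA of 15 samples of lineage-negative bone marrow cells, purified by magnetic sorting, was sequenced from a stranded library kit. Per the labels, the authors trimmed reads with Trimmomatic 0.38 and aligned them to mm10 with STAR 2.5.2b. The deposited table holds raw counts per Ensembl gene for 45706 identifiers. The annotation release and the strand setting of the counting are not given in the sources used here.

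Symbols and positions were taken from GENCODE vM21 (GRCm38), and 563 identifiers had no symbol. Counts were tested with edgeR 4.0.16 in R 4.3.3: TMM factors, filterByExpr, 1 quasi-likelihood fit of all 4 genotypes and Benjamini-Hochberg adjustment over the 18983 genes that passed, with a threshold of 0.05. G3 mTerc-/-Puma-/- replicate 2 does not appear in the study's heatmaps and principal component plot and was left out of the fit, so 14 libraries entered. Its level is given separately. Levels are TMM-normalised CPM over all 15 libraries. Correlations used log2 CPM with a prior count of 2, and giving them also over 10 libraries was chosen after seeing the data. The fits were tested on simulated data. DESeq2 1.42.0, limma-voom (limma 3.58.1), all 15 libraries, library size alone, no filter, a replicate block, Xist as a covariate, fits of only the compared groups and leaving out each library were the alternatives.

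The 10 GTPases, the pathway and marker lists and the tests were chosen with earlier results of these data known. The text names all 10 GTPases, list genes that passed the test in any comparison, fixed genes of the interferon-gamma pathway, and the 10 tested genes whose log2 CPM correlated best with the mean scaled log2 CPM of the GTPases. Further list genes named singly were chosen after their values were seen. Among them are Tap1, Nlrc5, Ly6a, Usp18, Isg15, Mx1 and the single T cell, NK cell and macrophage markers. Some genes of these lists are not reported here.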

Additional observations from a re-analysis of the deposited data

Results flagged for a closer look

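Each GTPase was examined for a library far from the others in the 3 genotypes with 4 libraries, 30 sets of 4 in all, with Dixon's test at the 95% level, by which chance alone marks about 1 set in 20. A gap above Dixon's limit was found in 2 of the 30. Iigp1 stood at 17.97 CPM in G3 mTerc-/-Puma+/+ replicate 1, where the other 3 libraries lay between 2.33 and 4.17, and the gap took 0.883 of the range. Gbp3 stood at 76.5 CPM in Puma-/- replicate 2, where the other 3 lay between 54.5 and 57.7, and the gap took 0.852 of the range. Both libraries were also the highest of their genotype for the other 9 GTPases and for the summed T cell markers, at 229 and 213 CPM, and the part of T cells in these values was not tested.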

How the results depend on the processing

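The count of GTPases passing the test was 0 in all 7 comparisons under every alternative run: 15 libraries, DESeq2, limma-voom, library size alone, no filter, the replicate block, Xist as a covariate, only the compared groups (not run for the interaction) and each of the 14 libraries left out, where it ranged from 0 to 0. For each GTPase, the log2 fold change in the comparison with its lowest p kept its direction under these alternatives, with Iigp1 in the double-mutant-labelled libraries against WT from 1.23 to 2.24. That comparison was picked by p in the same data, so a steady direction was partly fixed by the choice. The number of GTPases above 0 ran from 1 to 10 in G3 mTerc-/-Puma+/+ against WT. It ran from 2 to 10 in the double-mutant-labelled libraries against Puma-/-. Sizes were less stable: Gbp4 in Puma-/- against WT ran from 0.03 without Puma-/- replicate 2 to 0.70 without WT replicate 2, and Gbp9 in G3 mTerc-/-Puma+/+ against Puma-/- from -0.88 without G3 mTerc-/-Puma+/+ replicate 1 to -0.25 without Puma-/- replicate 2. Same-numbered libraries did not in general deviate together (3 of 18 pairs had a correlation over 0.1, the lowest was -0.25 and the highest 0.18). Such correlations do not show whether the numbers mark a shared batch. The replicate block gave 0 GTPases in each comparison and lowered the count of all genes from 58 to 21 and from 152 to 43 in both comparisons with Puma-/- as reference, leaving the others within 1.5 times.

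Counts over all genes moved more. DESeq2 gave 137, 46, 172, 287, 1004, 89 and 64 genes where edgeR gave 15, 7, 14, 58, 152, 12 and 10, in the order in which the comparisons were given. Leaving out 1 library gave 11 to 28, 1 to 8, 4 to 38, 18 to 93, 18 to 228, 1 to 16 and 5 to 11. The other alternatives past 1.5 times were 15 libraries (4 for 7, 6 for 14 and 24 for 152, as alternative and edgeR counts), the Xist covariate (33 for 58 and 18 for 152), library size alone (8 for 14), no filter (33 for 14), only the compared groups (3 for 7, 2 for 14, 90 for 58 and 5 for 12) and limma-voom (5 for 10). The SD within genotypes, 1.11 on the log2 scale for Iigp1, limits what 3 or 4 libraries per genotype can show.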
